A study of Mus musculus with 5 samples.

Results

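The genes described here are 42 genes of DNA replication and its E2F-driven transcription, taken by symbol from the 55573 genes of the deposited tables. They are the 6 subunits of the replicative helicase, 5 factors of origin licensing, 8 of origin firing, 5 polymerase and primase subunits, and 5 genes of the sliding clamp, its loader and Okazaki fragment joining. The rest are 4 enzymes of nucleotide supply, 2 subunits of a histone chaperone, 2 E-type cyclins and 5 E2F transcription factors. All 42 were found and all 42 passed the low-count filter, out of 16810 genes tested. They were compared between 3 tumours of Th-Cre:MYC mice and 2 normal pancreas samples of wild-type littermates, the 5 RNA sequencing libraries of the series. The tumour mice came from TH-Cre animals crossed to animals with CAG-STOPflox/flox-MYC, in which Cre made under the tyrosine hydroxylase promoter removes a stop and a CAG promoter then drives MYC. Tumour growth was followed by ultrasound. Normal tissue was perfused with RNAlater, an RNase inhibitor, before removal. That perfusion is described for normal tissue only, and the numbers in the sample descriptions lie in separate ranges for tumour and normal libraries. Differences of tissue and of sample or library handling therefore cannot be told apart in any comparison below. The sources used here do not give age or sex. The titles of tumour replicates 1 and 2 share a number that replicate 3 does not have, so replicates 1 and 2 may come from 1 animal.

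Before a cell copies its DNA, the origin recognition complex with Cdc6 and Cdt1 loads the Mcm helicase rings onto origins, and geminin, the product of Gmnn, blocks Cdt1 from doing so again. The kinase Cdc7 with its activator Dbf4, together with the cyclin E kinase, then turns the loaded rings into working helicases with Cdc45 and the GINS complex. E2F factors drive the transcription of most of these genes at the start of S phase. E2f1, E2f2 and E2f3 are classed as activators and E2f7 and E2f8 as repressors that the activators switch on. Acinar cells of the adult pancreas rarely divide.

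The smallest library held 6611967 estimated counts and the largest 51669489, and each normal library was deeper than every tumour library. The 42 genes together had only 1323 and 1241 counts in the normal libraries and 7034, 7867 and 3927 in the tumours. Levels are given as CPM, counts relative to the library size after TMM scaling, a method that sets libraries equal over most genes. On that scale 1 count is worth 0.0756 and 0.0736 CPM in the normal libraries and 0.0266, 0.0310 and 0.0692 CPM in the tumours. Exons of 14 of the 42 genes overlap another gene, and the strand setting of the counting is not known, so their reads may be mixed. The 14 are Mcm7, Orc1, Orc6, Cdc45, Gins2, Pole, Rfc4, Fen1, Lig1, Tk1, Chaf1a, Ccne2, E2f7 and E2f8. The labelled tissues differed in their markers. The 12 acinar markers took 36.3% and 36.2% of the normal counts and from 0.00576% to 0.221% of the tumour counts. With TMM 12 of 12 fell, beside 27.8% of all tested genes. Of 12 islet and neuroendocrine markers 10 rose, beside 39.2% of all tested genes, and none was called lower, with a lowest log2 value of -1.35. Without tumour replicate 1, 2 of these 12 were called lower, and 1 was with tumour replicates 1 and 2 summed. In bulk tissue, fewer cells of a type and less RNA per cell cannot be told apart. The directions below depend on the scaling. The median log2 fold change of all tested genes was 0.38 with TMM and 3.55 with total counts only. Of all calls, 58.5% were higher under TMM, 97.5% under total counts, 90.1% with limma on log2(TPM + 1), 90.7% with the smaller offset of 0.1, and 43.8% with TMM after a trend with gene length was removed.

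Promoter windows of these genes, which reach past the start of transcription, carried E2F words more often than promoter windows at large. Of the 42 genes, 35 had at least 1 window from RefSeq on GRCm38.p6 that runs from 250 bases before the start of transcription to 50 after it, 42 windows in all. The words searched on both strands were TTTCCCGC, TTTCGCGC, TTTGCCGC and TTTGGCGC, which may overlap each other on opposite strands. They were found in 15 of the 42 windows, or 35.7%, against 2.26% of all 32851 windows of that length and 3.69% of the 14736 windows of genes tested here. The shares of other words lay closer to both backgrounds. The CCAAT word was found in 54.8% of the windows of these genes, 37.4% of all windows and 37.1% of those of tested genes. The E-box CACGTG, to which MYC can bind, was found in 14.3%, 7.15% and 9.58%, and the CHR word TTTGAA of G2 and mitosis genes in 23.8%, 17.9% and 12.2%. A match is a description of the letters and not a bound site. Ccne2, Gins1, Gins2, Gins4, Gmnn, Mcm4 and Pole had no window. The 5 windows with the most E2F matches are shown 5′ to 3′ on the strand of the gene, with the E2F words in capitals, because 4 of the 5 belong to helicase subunits, the group described first below. They lie at chr1:128359656-128359955 (- strand) for Mcm6, chr1:20820263-20820562 (- strand) for Mcm3, chr8:75109259-75109558 (+ strand) for Mcm5, chr5:138171834-138172133 (- strand) for Mcm7 and chr5:151651159-151651458 (- strand) for Rfc3.
Mcm6: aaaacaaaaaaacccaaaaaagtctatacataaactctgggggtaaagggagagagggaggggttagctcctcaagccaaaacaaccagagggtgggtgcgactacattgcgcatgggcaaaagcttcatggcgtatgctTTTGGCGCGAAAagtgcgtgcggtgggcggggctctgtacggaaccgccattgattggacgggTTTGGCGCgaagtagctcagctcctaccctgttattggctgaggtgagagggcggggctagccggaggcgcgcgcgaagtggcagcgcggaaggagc
Mcm3: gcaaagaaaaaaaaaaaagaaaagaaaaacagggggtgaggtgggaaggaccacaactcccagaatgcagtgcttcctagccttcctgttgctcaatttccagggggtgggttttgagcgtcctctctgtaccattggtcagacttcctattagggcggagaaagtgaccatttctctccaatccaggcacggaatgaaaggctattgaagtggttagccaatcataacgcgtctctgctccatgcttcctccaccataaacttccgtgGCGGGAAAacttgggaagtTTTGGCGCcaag
Mcm5: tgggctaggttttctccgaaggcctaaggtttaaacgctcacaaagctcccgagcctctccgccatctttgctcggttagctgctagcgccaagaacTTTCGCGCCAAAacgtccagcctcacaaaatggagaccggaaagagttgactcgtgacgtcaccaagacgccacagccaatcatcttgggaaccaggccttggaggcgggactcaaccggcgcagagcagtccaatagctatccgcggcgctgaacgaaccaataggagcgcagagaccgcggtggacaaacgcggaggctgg
Mcm7: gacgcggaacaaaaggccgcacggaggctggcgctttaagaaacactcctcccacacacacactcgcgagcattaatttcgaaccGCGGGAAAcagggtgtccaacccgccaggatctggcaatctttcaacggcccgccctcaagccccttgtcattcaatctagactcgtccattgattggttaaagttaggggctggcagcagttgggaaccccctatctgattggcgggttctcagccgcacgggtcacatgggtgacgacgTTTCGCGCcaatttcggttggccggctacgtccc
Rfc3: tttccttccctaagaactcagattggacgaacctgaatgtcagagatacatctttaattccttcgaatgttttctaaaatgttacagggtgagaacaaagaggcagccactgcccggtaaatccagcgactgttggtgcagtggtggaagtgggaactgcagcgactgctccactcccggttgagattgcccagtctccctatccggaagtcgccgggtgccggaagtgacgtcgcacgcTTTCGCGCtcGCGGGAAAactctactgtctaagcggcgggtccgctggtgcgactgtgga
In the Mcm6 window, which had 3 matches, a pair of words overlapped on opposite strands 110 and 106 bases before the start, and the third lay 47 bases before it. The pair in the Mcm5 window overlapped in the same way. For Mcm3, E2f2, Cdt1, Pold1 and Lig1 the only E2F words lay after the start of transcription and not upstream of it. Of the 24 genes with a window that rose in the tumours, 13 held an E2F word, against 2 of the 11 that did not pass the test, Pold1 and Gins3. The CCAAT word also leaned this way, with 16 of the 24 and 5 of the 11. The CHR word was held by 6 and 3, and the E-box by 3 and 3. These splits were not tested.

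Of the 42 genes, 29 were higher in the tumours, none was lower and 13 did not pass the test (edgeR's quasi-likelihood test, adjusted p under 0.05 over all tested genes). Over all tested genes, 39.2% were higher and 27.8% lower. By DESeq2 28 were higher and 0 lower, beside 33.8% and 24.1% of all genes it tested, and none was lower at an unadjusted edgeR p under 0.05. The median log2 fold change of the 42 genes was 1.76, a 3.39-fold rise, against 0.38 over all tested genes. Every tumour lay above both normal libraries for 35 of the 42, which was so for 46.8% of all tested genes, and below both for 2, Gins4 and Rrm2, against 34.2%. The groups overlapped for Gmnn, Prim1, Pcna, Rfc4 and Tyms. Of the 29 calls, 18 held in each of 15 other settings, and the settings in which the others lost theirs stand beside those genes. With total counts only, 42 of 42 were higher, beside 93.3% of all tested genes, while 2.37% of all were lower.

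**Figure D1:**
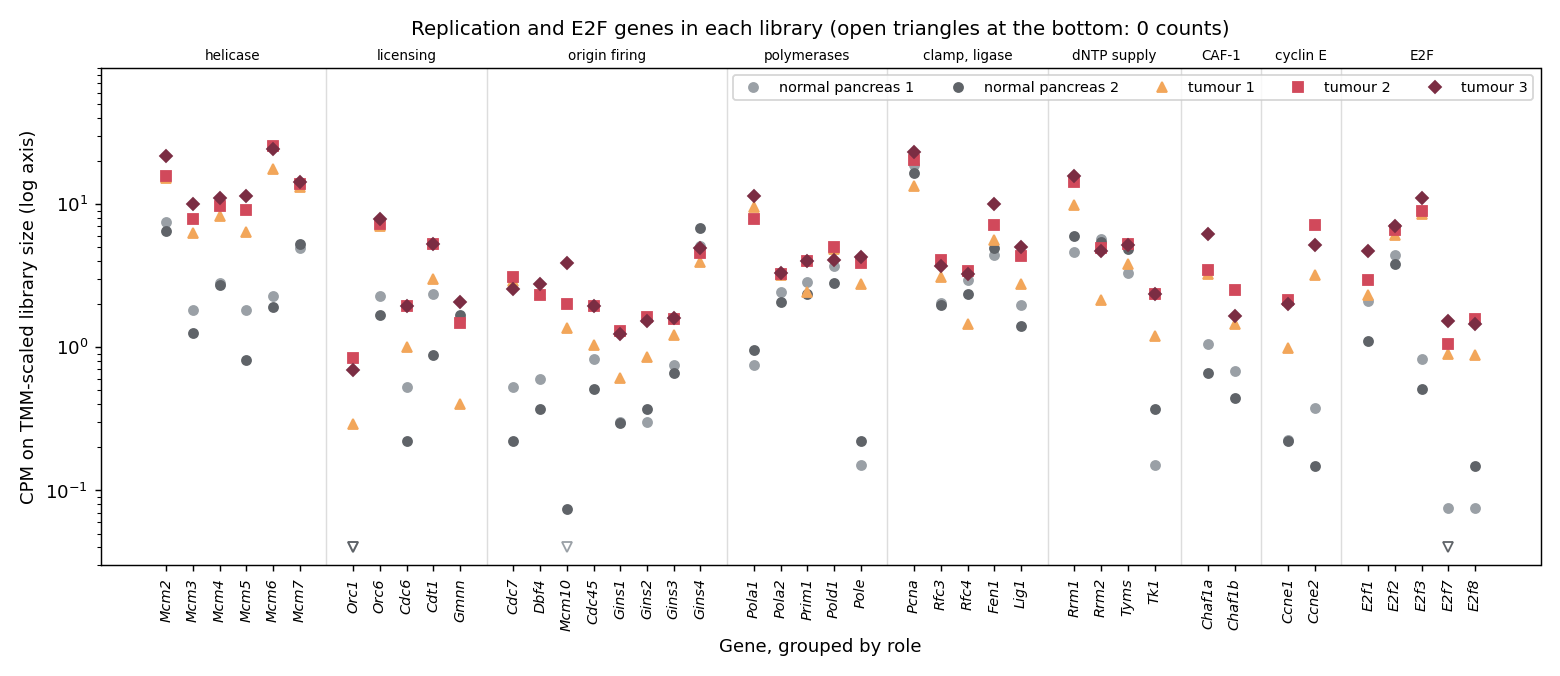
CPM on the TMM-scaled library size (log axis) of the 42 genes, grouped by role, with 1 symbol per library (2 normal pancreas, 3 tumours) and open triangles at the bottom for 0 counts. In 35 genes the 3 tumour symbols lie above both grey normal symbols, and tumour replicate 1 is the lowest tumour in 38.

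The helicase subunits rose together, 6 of 6, beside 39.2% of all tested genes, with log2 values between 1.32 and 3.42. They form the ring that unwinds the DNA double strand. Mcm6 (ENSMUSG00000026355.11, chromosome 1, 128331590 to 128359664, - strand) stood out among them, with 2.27 and 1.91 CPM in the normal libraries and 17.7, 25.4 and 24.2 CPM in the tumours, higher by 3.42 (log2, SE 0.25, edgeR adjusted p = 8.64e-05). Every tumour was several times above both normal libraries. Mcm5 went from 1.81 and 0.810 CPM to 6.38, 9.04 and 11.5 CPM (log2 2.76, SE 0.43, edgeR adjusted p = 0.00178), and the ratio between its normal libraries was larger than for the other subunits. Without normal pancreas replicate 1 its log2 value was 3.45. Mcm3 stood at 1.81 and 1.25 CPM in the normal libraries and at 6.27, 7.84 and 10.1 CPM in the tumours, a rise of 2.39 (log2, SE 0.32, edgeR adjusted p = 0.000990). Mcm4 had 2.80 and 2.73 CPM against 8.27, 9.66 and 11.01 CPM (log2 1.80, SE 0.21), with close agreement within each group. Mcm7 had 4.91 and 5.23 CPM against 13.2, 13.8 and 14.3 CPM (log2 1.44, SE 0.15), and its counts were not whole numbers and it overlaps exons of Ap4m1, Cops6, Mir25 and Mir93, so part of its reads may belong elsewhere. Mcm2 stood at 7.49 and 6.48 CPM in the normal libraries and at 15.4, 15.8 and 21.5 CPM in the tumours (log2 1.32, SE 0.21, edgeR adjusted p = 0.00195). With the length trend removed the rises of Mcm2 and Mcm4 were 0.66 and 1.10 and still passed.

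The ring holds 1 copy of each subunit, but the transcripts were not at equal levels. On the TPM scale, which corrects for transcript length, the tumour means of the subunits ran from 2.27 TPM for Mcm4 to 7.05 TPM for Mcm6, with 7.03 TPM for Mcm7 and 4.66 TPM for Mcm2 between them. In normal pancreas the order was different, with Mcm7 (0.750 TPM) and Mcm2 (0.655 TPM) highest and Mcm5 (0.155 TPM) lowest, and Mcm6 at 0.235 TPM. Mcm6 thus went from the fifth of the 6 subunits to level with Mcm7, since its tumour values of 6.05, 8.28 and 6.82 TPM overlapped the 7.56, 7.28 and 6.25 TPM of Mcm7. TPM levels are held down in both tissues by abundant RNA of other genes. The misc_RNA class of the annotation took from 63.0% to 66.2% of tumour TPM and at most 0.0101% of normal TPM. The 12 acinar markers took 35.5% and 35.7% of normal TPM and at most 0.0792% of tumour TPM. TPM placed the tumours higher against normal pancreas than TMM did. The median log2 value of all tested genes was 1.40 on log2(TPM + 0.1) and 0.38 with TMM. Ratios between genes within a library do not depend on this.

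Of the licensing factors, the 4 that load the helicase or mark origins rose, beside 39.2% of all tested genes, and geminin did not pass. Orc1, the largest subunit of the origin recognition complex, had no count in either normal library and 11, 27 and 10 counts in the tumours, so that it was at least 5.08-fold higher when 3 counts over the normal group are taken as the floor (edgeR adjusted p = 0.0109). That bound was 2.51-fold without normal pancreas replicate 2 and 2.58-fold without replicate 1, because a floor from 1 library is a higher level. Orc6, the smallest subunit, stood at 2.27 and 1.69 CPM in the normal libraries and at 7.04, 7.31 and 7.83 CPM in the tumours, a rise of 1.90 (SE 0.24, edgeR adjusted p = 0.000707), and the 3 tumours lay close together. Its tumour mean of 6.14 TPM was the fourth highest of the 42 genes. Cdc6 had 0.529 and 0.221 CPM against 1.0099, 1.95 and 1.94 CPM (log2 2.10, SE 0.60, edgeR adjusted p = 0.0205), with tumour replicate 1 below the other two. Cdt1, the loader that geminin inhibits, had 2.34 and 0.884 CPM against 3.003, 5.23 and 5.26 CPM (log2 1.47, SE 0.50, edgeR adjusted p = 0.0358). Its normal libraries were far apart, and without normal pancreas replicate 1 its value was 2.34. In edgeR, Cdc6 did not pass without normal pancreas replicate 2 (adjusted p = 0.121) or with the length trend removed (0.0557), and Cdt1 did not without normal pancreas replicate 2 (0.162), tumour replicate 2 (0.0702) or 3 (0.0804) or the length trend (0.0639). Without normal pancreas replicate 1 the log2 value of Cdc6 was 2.85.

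Geminin, the inhibitor of loading, did not pass the test. Gmnn (ENSMUSG00000006715.11, chromosome 13, 24751845 to 24761923, - strand) stood at 1.59 and 1.69 CPM in the normal libraries and at 0.399, 1.49 and 2.08 CPM in the tumours (log2 -0.35, SE 0.68, edgeR adjusted p = 0.661). Tumour replicate 1 was below both normal libraries, replicate 2 just below both, and replicate 3 above both. The direction turned without tumour replicate 1 (log2 0.11), with total counts only (2.79) and on both TPM scales. The ratio of Gmnn to Cdt1 within a library, which needs no scaling, was 1.44 and 4.85 in TPM in normal pancreas and 0.329, 0.586 and 0.954 in the tumours. On the log2 scale its mean was 1.40 ± 1.23 (SD, n = 2) for the normal libraries and -0.81 ± 0.77 (SD, n = 3) for the tumours, a difference of -2.22, with every tumour below both normal libraries (exact permutation p = 0.1, two-sided, the smallest these 10 splits allow). The 2 normal ratios were themselves far apart, and the difference was -3.09 without normal pancreas replicate 1 and -1.35 without replicate 2.

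**Figure D2:**
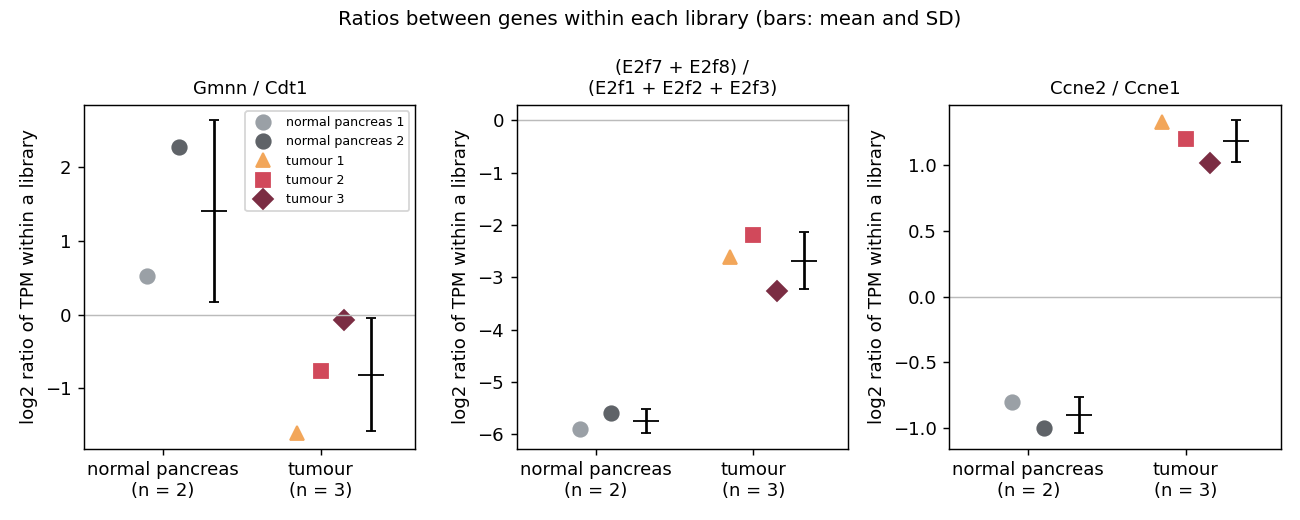
Log2 ratio of TPM between genes within each library for Gmnn to Cdt1, E2f7 plus E2f8 to E2f1 plus E2f2 plus E2f3, and Ccne2 to Ccne1, with 1 symbol per library and the mean and SD of each group (2 normal pancreas, 3 tumours). The groups do not overlap in any panel, with tumours lower for Gmnn to Cdt1 and higher in the other two, but in the E2F panel an offset of 0.1 TPM reduces the difference from 3.06 to 0.023.

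Among the origin firing factors 5 of 8 rose, beside 39.2% of all tested genes. Cdc7, the kinase that phosphorylates the loaded helicase, stood at 0.529 and 0.221 CPM in the normal libraries and at 2.92, 3.10 and 2.56 CPM in the tumours (log2 2.92, SE 0.48, edgeR adjusted p = 0.00211), and 3.67 on the log2 scale without normal pancreas replicate 1. Its activator Dbf4 had 0.605 and 0.368 CPM against 2.37, 2.32 and 2.77 CPM (log2 2.34, SE 0.42, edgeR adjusted p = 0.00319). Both partners of this kinase were above both normal libraries in all 3 tumours. Mcm10, which helps the helicase start, had 0 and 1 counts in the normal libraries and 51, 65 and 56 in the tumours, a 54.7-fold higher pooled level with an exact 95% binomial interval of 9.68 to 2171 (edgeR adjusted p = 0.00285). The ratio was 27.7 without normal pancreas replicate 1 and at least 8.99 without replicate 2. The interval covers counting error only.

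In the GINS complex, 4 subunits that join Cdc45 and the Mcm ring into the working helicase, Gins1 and Gins2 rose and Gins3 and Gins4 did not pass. The differences between subunits were not tested. Gins2 stood at 0.302 and 0.368 CPM in the normal libraries and at 0.850, 1.64 and 1.52 CPM in the tumours (log2 1.97, SE 0.55, edgeR adjusted p = 0.0177), from 4 and 5 normal counts. Gins1 had 0.302 and 0.295 CPM against 0.611, 1.301 and 1.25 CPM (log2 1.78, SE 0.59, edgeR adjusted p = 0.0333). These calls rest on few normal counts. Gins2 lost its edgeR call without either normal library (adjusted p = 0.103 and 0.0786), and Gins1 without any library but tumour replicate 1 (adjusted p from 0.0666 to 0.140) and by DESeq2 (0.0566). Gins3 had 0.756 and 0.663 CPM against 1.22, 1.58 and 1.59 CPM, which missed the threshold (log2 1.03, SE 0.41, edgeR adjusted p = 0.0616). Gins4 stood at 5.14 and 6.78 CPM in the normal libraries and at 3.93, 4.58 and 4.92 CPM in the tumours (log2 -0.42, SE 0.23, edgeR adjusted p = 0.151), and was the subunit with the highest TPM in both tissues, at 1.51 TPM in normal pancreas and 3.10 TPM in tumour. All 3 tumours were below both normal libraries for Gins4 with TMM, and the direction was reversed with total counts only (log2 2.76) and on both TPM scales. Cdc45 had 0.832 and 0.516 CPM against 1.04, 1.95 and 1.94 CPM (log2 1.27, SE 0.51, edgeR adjusted p = 0.0639), and passed without tumour replicate 1 (log2 1.53, edgeR adjusted p = 0.0244).

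Of the 5 polymerase and primase genes 2 rose, a share near the 39.2% of all tested genes. The catalytic subunits of polymerase alpha, which starts each new strand, and of polymerase epsilon, which copies the leading strand, rose, and the other 3 genes did not pass. Pola1 (ENSMUSG00000006678.6, chromosome X, 93304767 to 93632155, - strand) stood at 0.756 and 0.957 CPM in the normal libraries and at 9.51, 7.93 and 11.4 CPM in the tumours, a rise of 3.47 (SE 0.29, edgeR adjusted p = 0.000142). Pole had 0.151 and 0.221 CPM, from 2 and 3 counts, against 2.79, 3.87 and 4.29 CPM (log2 4.24, SE 0.47, edgeR adjusted p = 0.000441). No normal library came near any tumour for either gene. With the length trend removed the values were 2.54 and 3.45, and both passed. Pola2, the second subunit of polymerase alpha, had 2.42 and 2.06 CPM against 3.19, 3.25 and 3.32 CPM (log2 0.54, SE 0.27, edgeR adjusted p = 0.123). Prim1, the primase subunit that makes the RNA primer, had 2.87 and 2.36 CPM against 2.42, 4.03 and 4.02 CPM (log2 0.41, SE 0.34, edgeR adjusted p = 0.324). Pola1, Pola2 and Prim1 thus belong to 1 complex and had log2 values of 3.47, 0.54 and 0.41. In tumour TPM the 3 overlapped, with means of 1.58, 1.55 and 1.91 TPM, while in normal pancreas Pola1 was at 0.065 TPM against 0.405 and 0.585 TPM. Pold1, the catalytic subunit of the lagging-strand polymerase delta, had 3.70 and 2.80 CPM against 4.89, 5.05 and 4.09 CPM (log2 0.53, SE 0.26, edgeR adjusted p = 0.109).

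Of the clamp, clamp loader and fragment joining genes 2 of 5 rose, a share near the 39.2% of all tested genes. The most abundant of the 5 did not pass. Pcna, the sliding clamp that holds polymerases on DNA, stood at 18.8 and 16.4 CPM in the normal libraries and at 13.3, 20.4 and 23.0 CPM in the tumours (log2 0.10, SE 0.25, edgeR adjusted p = 0.742). The groups overlapped, with tumour replicate 1 lowest of all 5. Pcna had the highest TPM of the 42 genes in both tissues, at 3.95 TPM in normal pancreas and 11.8 TPM in tumour, and its counts were not whole numbers, as happens where reads match more than 1 gene. Of the clamp loader subunits, Rfc3 had 2.04 and 1.99 CPM against 3.08, 4.06 and 3.67 CPM (log2 0.84, SE 0.29, edgeR adjusted p = 0.0383), and Rfc4 had 2.95 and 2.36 CPM against 1.46, 3.44 and 3.25 CPM (log2 0.02, SE 0.44, edgeR adjusted p = 0.965). Tumour replicate 1 was below both normal libraries for Rfc4 and the other two were above both. Fen1, the nuclease that trims Okazaki fragments, had 4.39 and 4.93 CPM against 5.61, 7.19 and 10.04 CPM (log2 0.69, SE 0.29, edgeR adjusted p = 0.0707), and passed without tumour replicate 1 (log2 0.88, edgeR adjusted p = 0.0210). Lig1, the ligase that joins the fragments, had 1.97 and 1.40 CPM against 2.76, 4.34 and 5.06 CPM (log2 1.26, SE 0.38, edgeR adjusted p = 0.0252). The calls of Rfc3 and Lig1 depended on single libraries. Rfc3 kept its edgeR call only without tumour replicate 1 when a library was left out (adjusted p from 0.0746 to 0.136 without the others), and so did Lig1 (0.0511 to 0.138), which also lost it with the length trend removed (0.140).

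**Figure D3:**
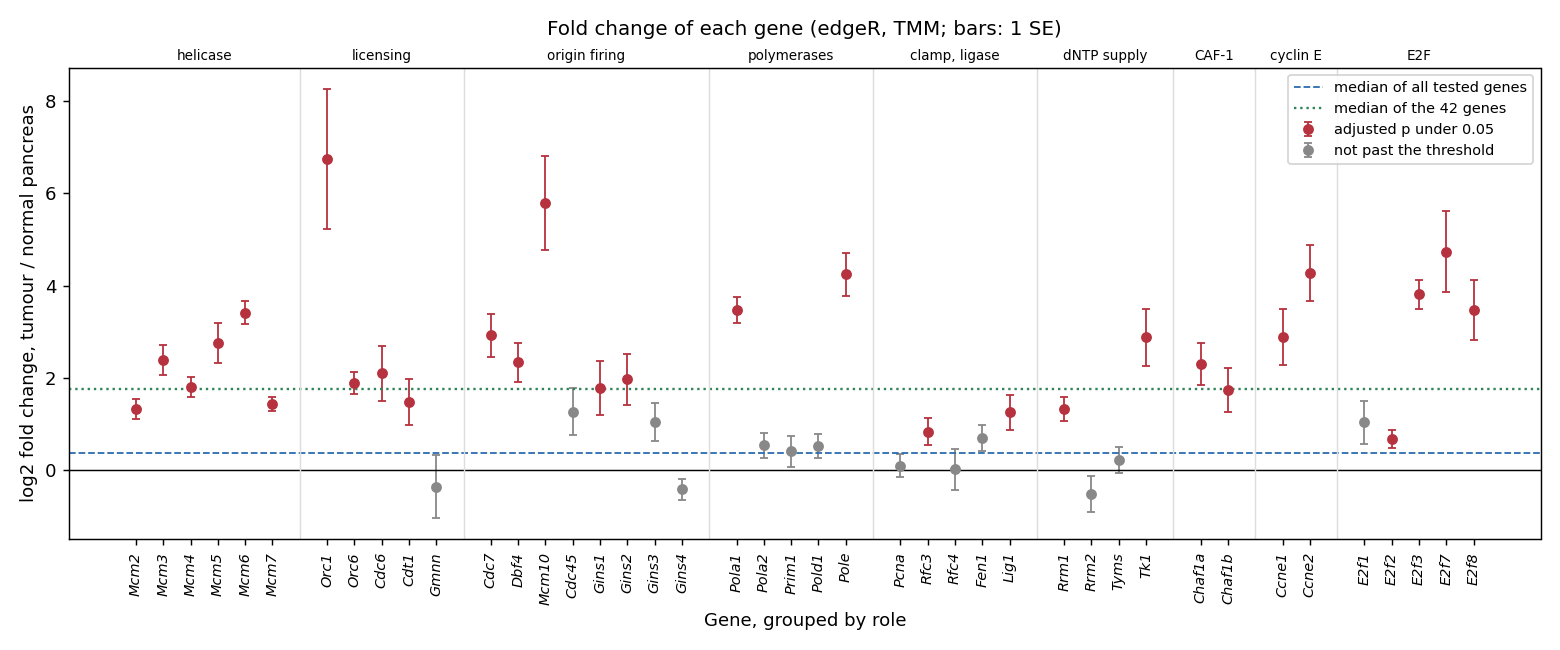
Log2 fold change (tumour over normal pancreas, edgeR with TMM) of the 42 genes with bars of 1 SE, red where the adjusted p is under 0.05, with the medians of the 42 genes (1.76) and of all tested genes (0.38) as lines. Values run from -0.52 for Rrm2 to 6.75 for Orc1, whose fitted value rests on 0 normal counts.

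Among the enzymes of nucleotide supply, Rrm1 and Tk1 rose and Rrm2 and Tyms did not pass, while 39.2% of all tested genes rose. Ribonucleotide reductase, which makes the DNA building blocks, joins the large subunit from Rrm1 and the small subunit from Rrm2. Rrm1 stood at 4.61 and 5.97 CPM in the normal libraries and at 9.91, 14.3 and 15.7 CPM in the tumours (log2 1.32, SE 0.26, edgeR adjusted p = 0.00460). Rrm2 had 5.75 and 5.45 CPM against 2.13, 4.96 and 4.71 CPM (log2 -0.52, SE 0.39, edgeR adjusted p = 0.270). All 3 tumours lay below both normal libraries for Rrm2 with TMM, and tumour replicate 1 was the farthest below. The direction turned with total counts only (log2 2.65) and on both TPM scales. Tyms, which makes thymidylate, had 3.33 and 4.86 CPM against 3.83, 5.30 and 5.19 CPM (log2 0.22, SE 0.28, edgeR adjusted p = 0.521), with overlapping groups. Tk1, the thymidine kinase of the salvage route, had 0.151 and 0.368 CPM against 1.20, 2.35 and 2.35 CPM (log2 2.88, SE 0.63, edgeR adjusted p = 0.00688). In edgeR, Tk1 did not pass without normal pancreas replicate 1 (adjusted p = 0.0528), nor Rrm1 with the length trend removed (log2 0.68, adjusted p = 0.0554), and the log2 value of Tk1 was 3.67 without normal pancreas replicate 2.

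Chaf1a and Chaf1b, which encode subunits of the histone chaperone CAF-1, both rose, beside 39.2% of all tested genes. CAF-1 places new histones behind the replication fork. Chaf1a stood at 1.06 and 0.663 CPM in the normal libraries and at 3.24, 3.47 and 6.16 CPM in the tumours (log2 2.30, SE 0.46, edgeR adjusted p = 0.00503), with tumour replicate 3 highest. Chaf1b had 0.680 and 0.442 CPM against 1.46, 2.51 and 1.66 CPM (log2 1.74, SE 0.48, edgeR adjusted p = 0.0177). In edgeR, Chaf1a did not pass with the length trend removed (log2 1.18, adjusted p = 0.0563), nor Chaf1b without normal pancreas replicate 1 or 2 (adjusted p = 0.0554 and 0.110).

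Both E-type cyclins, which activate the kinase Cdk2 at the entry into S phase, rose in every setting tried. With TMM 39.2% of all tested genes rose. Ccne2 (ENSMUSG00000028212.16, chromosome 4, 11191351 to 11204779, + strand) stood at 0.378 and 0.147 CPM in the normal libraries and at 3.19, 7.19 and 5.19 CPM in the tumours, a rise of 4.28 (SE 0.60, edgeR adjusted p = 0.00114), or 5.09 without normal pancreas replicate 1. Ccne1 had 0.227 and 0.221 CPM against 0.983, 2.14 and 2.01 CPM (log2 2.89, SE 0.61, edgeR adjusted p = 0.00610). The lowest tumour in both was replicate 1. Within a library, the ratio of Ccne2 to Ccne1 in TPM was 0.571 and 0.50 in normal pancreas and 2.52, 2.30 and 2.03 in the tumours. By TPM the more abundant of the pair was thus Ccne1 in both normal libraries and Ccne2 in all 3 tumours. By counts and CPM, Ccne2 was already above Ccne1 in normal pancreas replicate 1. On the log2 scale the means were -0.90 ± 0.14 (SD, n = 2) and 1.18 ± 0.16 (SD, n = 3), a difference of 2.09 (exact permutation p = 0.1, two-sided, the smallest possible). With an offset of 0.1 TPM the difference was 1.33, and from estimated counts in place of TPM it was 1.53. The normal ratios come from only 5 and 2 counts of Ccne2 and 3 and 3 of Ccne1.

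Of the E2F factors, 4 of 5 rose, beside 39.2% of all tested genes, with log2 values from 0.68 for E2f2 to 4.74 for E2f7. E2f3 (ENSMUSG00000016477.18, chromosome 13, 29906575 to 29986063, - strand) stood at 0.832 and 0.516 CPM in the normal libraries and at 8.58, 8.92 and 11.1 CPM in the tumours, a rise of 3.81 (SE 0.31, edgeR adjusted p = 0.000122). E2f2 had 4.39 and 3.83 CPM against 6.06, 6.63 and 7.06 CPM (log2 0.68, SE 0.20, edgeR adjusted p = 0.0238). E2f1 had 2.12 and 1.10 CPM against 2.34, 2.97 and 4.71 CPM, which missed the threshold (log2 1.03, SE 0.46, edgeR adjusted p = 0.0875), although every tumour was above both normal libraries. In normal pancreas E2f3 had the lowest TPM of the 3 activators, at 0.045 TPM against 0.305 for E2f2 and 0.190 for E2f1. In the tumours E2f3 (1.67, 1.63 and 1.70 TPM) and E2f2 (1.77, 1.22 and 1.72 TPM) overlapped, with E2f1 at 0.82, 0.97 and 1.29 TPM. The call of E2f2 was lost in edgeR without normal pancreas replicate 1 (adjusted p = 0.0752) or 2 (0.132) or tumour replicate 3 (0.0594), and its direction turned with the length trend removed (log2 -0.12, adjusted p = 0.606), while E2f3 passed there at 2.88. E2f1 passed without tumour replicate 1 (log2 1.24, edgeR adjusted p = 0.0484).

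The repressors E2f7 and E2f8 were almost missing from normal pancreas. E2f7 had 1 and 0 normal counts and 34, 34 and 22 tumour counts, a 28.6-fold higher pooled level with an interval of 5.004 to 1142 (edgeR adjusted p = 0.00379). That ratio was at least 4.83 without normal pancreas replicate 1 and was 14.1 without replicate 2. E2f8 had 1 and 2 normal counts and 33, 51 and 21 tumour counts, 11.1-fold higher with an interval of 3.70 to 54.8 (edgeR adjusted p = 0.00383). Both repressors thus rose from 3 or fewer counts in both normal libraries together, and with the length trend removed they passed at 4.07 and 2.82. Within a library, the summed TPM of E2f7 and E2f8 over that of the 3 activators was 0.0167 and 0.0208 in normal pancreas and 0.164, 0.220 and 0.104 in the tumours. The log2 means were -5.75 ± 0.23 (SD, n = 2) and -2.69 ± 0.54 (SD, n = 3), a difference of 3.06 (exact permutation p = 0.1, two-sided, the smallest possible). The normal ratios rest on TPM values of 0.01 or 0, written to 2 decimals. With an offset of 0.1 TPM added to every level the difference was only 0.023 (exact permutation p = 1.0), and from estimated counts in place of TPM it was 2.40, so its size is not settled by these counts. The 3 ratios tested within libraries each gave an exact permutation p of 0.1, and 0.1 after Benjamini-Hochberg adjustment over the 3. The activators remained more abundant than the repressors in every library.

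**Figure D4:**
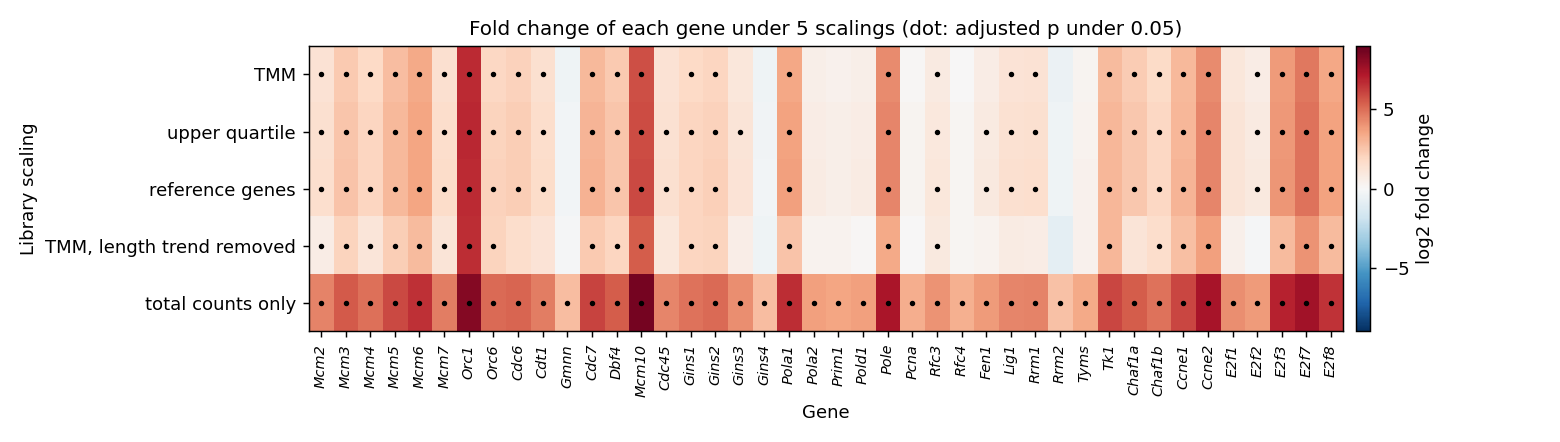
Log2 fold change of each of the 42 genes (columns, grouped by role) under 5 scalings (lines), from blue for lower to red for higher in tumour, with a dot where the adjusted p is under 0.05. With total counts only all 42 have a dot, and with TMM the 29 called genes do.

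Longer genes among the 42 tended to have larger fold changes. Pearson's r between log2 length and log2 fold change was 0.429 and Spearman's rho 0.474 over the 42 genes, which share the 5 libraries. With a length trend fitted over all tested genes removed, 23 of the 42 were higher and none lower, and their median was 1.19 against -0.11 over all tested genes. Over all tested genes 28.8% were then higher and 37.0% lower. The cause of the trend was not tested.

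The 3 tumours were not alike in these genes. Tumour replicate 1 had the lowest CPM of the 3 for 38 of the 42 genes, while over all tested genes it was the lowest for 34.0%. Summed over the 42 genes the level was 187 CPM in replicate 1 and 244 and 272 CPM in replicates 2 and 3, and 100.01 and 91.4 CPM in normal pancreas. The exceptions were Cdc7, Dbf4, Pola1 and Pold1. The gap was plain in Rrm2 and Gmnn. Rrm2 was 2.13, 4.96 and 4.71 CPM and Gmnn 0.399, 1.49 and 2.08 CPM in the 3 tumours. Without replicate 1, 32 genes were higher, among them Cdc45, Fen1 and E2f1, and none lower, beside 38.9% and 28.2% of all tested genes. Replicate 1 also had the lowest summed level of the 12 G2 and mitosis markers of the 3 tumours, at 50.7 CPM against 88.9 and 78.9 CPM.

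Markers of other cell types varied between libraries of the same tissue. The summed level of 11 leukocyte markers was 126 and 57.1 CPM in the normal libraries and 78.2, 161 and 67.9 CPM in the tumours. Of the 11, 9 were tested, of which Ptprc, the common leukocyte antigen, rose and none fell, and the T cell genes Cd3e and Cd3d had 0 counts in tumour replicate 3. Of 10 stromal and endothelial markers 7 rose and 1, Dcn, fell, beside 39.2% and 27.8% of all tested genes. Their summed levels were 371 and 333 CPM in the normal libraries and 568, 915 and 815 CPM in the tumours. Of 7 duct markers 4 fell and 1, Krt7, rose, with sums of 516 and 536 CPM against 85.2, 52.3 and 108 CPM. What part these cells had in the levels of the replication genes was not tested.

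Other genes of the same pathways were called in both directions. The 44 other replication factors included 43 with enough counts to test, and 17 rose while 7 fell, with a median of 0.66. That share of higher genes is near the 39.2% of all tested genes, and with the length trend removed 13 were higher and 12 lower. Pole2, the second subunit of polymerase epsilon, was too low to test. Topbp1, which brings firing factors to origins, rose by 1.79 (log2, SE 0.16, edgeR adjusted p = 0.000188), from 5.75 and 4.79 CPM to 17.6, 18.1 and 19.1 CPM. Wdhd1, which ties polymerase alpha to the helicase, rose by 2.66 (SE 0.33, edgeR adjusted p = 0.000645), from 0.907 and 0.884 CPM to 4.78, 5.23 and 7.13 CPM. Rnaseh2c, a subunit of an enzyme that removes RNA from DNA, was lower with TMM (log2 -1.86, SE 0.22, edgeR adjusted p = 0.000588) and higher with total counts only (log2 1.32). With total counts only, 43 of 43 were higher, beside 93.3% of all tested genes.

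The 24 genes of the RB and DREAM axis were pocket proteins, E2F factors and their partners, D-type cyclins, cell cycle kinases and kinase inhibitors. Some hold E2F targets down and others release them, so counts over the list mix opposing roles. With TMM 5 rose and 8 fell, beside 39.2% and 27.8% of all tested genes, and the median was -0.18. With the length trend removed 4 were higher and 12 lower, beside 28.8% and 37.0%. The 5 that rose with TMM were Ccnd1, Tfdp1, Cdk4, Mybl2 and Rbl1. Cyclin D1 (Ccnd1) rose by 1.79 (SE 0.16, edgeR adjusted p = 0.000190), from 23.1 and 21.5 CPM to 67.6, 85.1 and 78.0 CPM. Cyclin D3 (Ccnd3) went the other way with TMM, from 48.2 and 45.4 CPM to 12.6, 10.1 and 10.7 CPM (log2 -2.07, SE 0.15, edgeR adjusted p = 8.44e-05), and was higher with total counts only (log2 1.11). The DREAM subunit Lin37 had 25.4 and 23.9 CPM against 2.29, 2.42 and 2.35 CPM (log2 -3.39, SE 0.14, edgeR adjusted p = 2.37e-05), a call that total counts alone did not give (log2 -0.21, edgeR adjusted p = 0.428). With total counts only, 22 of the 24 were higher and none lower, which is near the 93.3% and 2.37% of all tested genes.

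The markers of G2 and mitosis rose without exception, 12 of 12, beside 39.2% of all tested genes, with a median of 4.41. The same count was reached in each of the 15 other settings. Mki67, the proliferation antigen, stood at 0.529 and 0.295 CPM in the normal libraries and at 19.2, 31.0 and 30.3 CPM in the tumours, a rise of 6.01 (SE 0.39, edgeR adjusted p = 6.29e-05). Top2a, the topoisomerase of dividing cells, rose by 5.43 (SE 0.43, edgeR adjusted p = 0.000120) from 0.227 and 0.516 CPM to 11.5, 18.9 and 18.6 CPM. Cyclin A2 (Ccna2) rose by 5.18 (SE 0.52, edgeR adjusted p = 0.000281) from 0.151 and 0.221 CPM to 4.89, 9.57 and 6.37 CPM. The smallest rise in that list, 3.17 for Plk1, was above the median of the replication genes. In normal pancreas the 12 markers lay near the floor, with sums of only 2.19 and 1.91 CPM. There, 1 and 3 of them had 0 counts, and Bub1 had 0 in both libraries. The sizes of these rises and their median thus rest on few normal counts. The 14 reference genes, chosen for use in all tissues, had a median of -0.14, with 3 higher and 5 lower. Scaled on them, 31 of the 42 replication genes were higher and none lower, beside 41.0% and 21.9% of all tested genes.

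**Figure D5:**
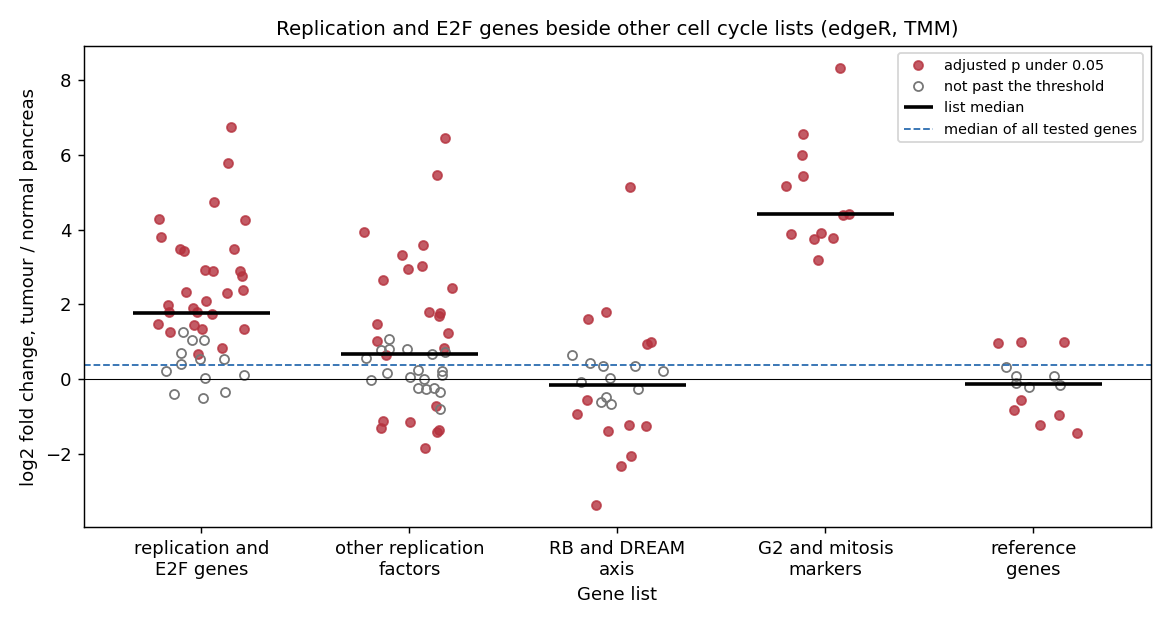
Log2 fold change (tumour over normal pancreas, edgeR with TMM) of single genes in 5 lists, filled where the adjusted p is under 0.05, with the list median as a bar and the median of all tested genes (0.38) as a line. The medians are 1.76 for the 42 replication genes, 0.66 for other replication factors, -0.18 for the RB and DREAM axis, 4.41 for G2 and mitosis markers and -0.14 for reference genes.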

How the data were processed

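RNA was sequenced from 3 tumours and 2 normal pancreas samples. Trim Galore 0.60, STAR 2.7 and RSEM 1.31, with the builds mm10 and GRCm38, are named by the submitters' processing notes. The sources used here give no settings, strand or annotation release. The authors deposited RSEM estimated counts and TPM values (transcript shares scaled to a fixed sum and corrected for length) for 55573 genes. Estimated counts were rounded to whole numbers. The 92 spike-in rows held 0 counts. Tumour replicates 1 and 2 share a number in their titles, and the labels do not say that the samples of a group come from separate animals, so p-values measure only the spread between these samples, which may be technical.

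Genes were filtered with filterByExpr and tested with edgeR 4.0.16 (TMM scaling, quasi-likelihood test, Benjamini-Hochberg adjustment over 16810 genes, threshold 0.05). The test was first tried on simulated data. The alternatives were total counts only, upper-quartile scaling, scaling on 14 reference genes, protein-coding genes without acinar markers, DESeq2 1.42.0, no filter, limma 3.58.1 on log2(TPM + 1) and log2(TPM + 0.1), tumour replicates 1 and 2 summed, and each library left out. Removal of a trend with gene length was added after seeing the data. Where a gene had 0 normal counts, 3 counts over the group served as floor. Intervals are exact 95% binomial and cover counting error only. Promoter windows are from RefSeq and gene coordinates from GENCODE M21, both on GRCm38.

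All 42 genes are named; from each list of other pathway genes (other replication factors, RB and DREAM axis, G2 and mitosis) the 3 called genes with the lowest p were named, with any gene that a count of 5 or fewer needs, and other names were chosen after their values were seen. The genes and lists were chosen with earlier results of these data known.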

Additional observations from a re-analysis of the deposited data

How the results depend on the processing

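None of the 42 genes was called lower in any of the 15 other settings, though some had negative values. Where each group kept more than 1 library, between 23 (length trend removed) and 42 (total counts only) were called higher. Over all tested genes 28.8% and 93.3% were higher in those 2 settings. The median log2 fold change of 1.76 became 4.90 with total counts only, 0.92 and 2.17 with limma on log2(TPM + 1) and log2(TPM + 0.1), and 1.19 with the length trend removed. It lay between 1.51 and 1.91 when a library was left out, when 21 to 32 genes were higher, beside 26.0% to 39.0% of all tested genes. Of 630 single-gene values under these settings, 544 kept direction and side of the threshold, 30 lost the call, 40 gained it and 16 changed direction. Gmnn turned to 2.79, Gins4 to 2.76 and Rrm2 to 2.65 with total counts only. On log2(TPM + 1) the same genes were at 0.47, 0.71 and 0.40, and on log2(TPM + 0.1) at 0.79, 0.997 and 0.65. With 1 library left out, Gmnn ran from -0.78 to 0.11 (without tumour replicate 1), Pcna from -0.034 (without tumour replicate 3) to 0.30, and Tyms from -0.030 (without normal pancreas replicate 1) to 0.53. Rfc4 ran from -0.21 (without tumour replicate 2) to 0.34, with -0.11 without normal pancreas replicate 2 and -0.089 without tumour replicate 3. E2f2 was -0.12 with the length trend removed. The ratio of E2f7 and E2f8 to the activators kept its direction, but the log2 difference was 0.023 with an offset of 0.1 TPM. The cause was not tested. A group left with 1 library is assumed to vary like the other. Both normal libraries had few counts of these genes, which limits the fold changes of Orc1, Mcm10, E2f7 and E2f8 to bounds or wide intervals. No paired analysis was possible because tumours and normal pancreas come from different mice and tumour numbers follow accession order.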
